A study of Mus musculus with 2 samples.

Results

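The miR-29 family guide arms, miR-29a-3p, miR-29b-3p and miR-29c-3p, were taken by name from the deposited tables of 2 small RNA libraries. They are 3 of the 1125 mature miRNAs listed in at least 1 library, and all 3 were listed in both. The Th17 library came from cells cultured for 6 to 7 days with 1 µg/ml of anti-CD28, with 5 µg/ml each of antibodies to IFN-γ, IL-12, IL-4 and IL-2, and with the cytokines IL-23 and IL-6 (both 40 ng/ml), IL-1β (10 ng/ml) and TGF-β (2 ng/ml). The Th0 library came from control cells given the same doses of anti-CD28, anti-IFN-γ and anti-IL-4. For Th0 the labels name no antibody to IL-2 or IL-12 and no cytokine, so these antibodies and the cytokines cannot be told apart. How long Th0 cells were cultured is not stated in the labels, so culture time and Th17 conditions cannot be told apart. Both groups were naive CD4+CD62L+ helper T cells from spleens of female C57BL/6 mice, grown in medium with 10% foetal bovine serum. Antibody to IFN-γ was thus present in both cultures.

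Each group is 1 column of reads, so no test of the conditions was possible and no p-value is given. Intervals throughout are 95% intervals of counting error within these 2 libraries, and they do not hold the spread between cultures. The tables listed 11975371 reads in Th17 and 8358010 reads in Th0. Levels are counts per 1000000 listed reads (CPM). As a check of the labelled cell type, 5 miRNAs of T cells and other blood cells summed to 133180 CPM in Th17 and 95954 CPM in Th0. The 5 stromal markers, all listed in both libraries, summed to 27.4 CPM in Th17 and 2.63 CPM in Th0, against 27829 and 14054 CPM for the miR-29 guide arms. Markers of the endothelium (2 miRNAs) summed to 85.9 CPM in Th17 and 191 CPM in Th0, and the 5 epithelial markers to 208 and 387 CPM. The myeloid miR-223-3p stood at 6.76 CPM in Th17 and 3.35 CPM in Th0, and the erythroid pair at 2.17 and 0.718 CPM, with miR-144-3p at 0 in Th0. The 6 liver, muscle and neural markers summed to 6.01 CPM in Th17 and 14.1 CPM in Th0. Of these sums miR-9-5p alone held 4.76 and 13.9 CPM. miR-1a-3p was at 0 in both libraries, and miR-122-5p, miR-206-3p and miR-124-3p were at 0 in Th0. The part of these markers of other cell types in the miR-29 ratios was not tested.

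A miRNA hairpin is cut into a duplex, of which the guide arm is loaded into an Argonaute protein and pairs with messenger RNAs mainly through bases 2 to 8, the seed, while most of the passenger arm is lost. In mouse T cells miR-29 is known to restrain the Th1 programme: the messenger RNAs of the transcription factors T-bet and Eomes, and of IFN-γ itself, have been reported as its targets. In other tissues it is known for repressing collagens and the DNA methyltransferases Dnmt3a and Dnmt3b.

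The mature sequences are shown because the seed makes the 3 members a family while bases outside it separate them. Sequences are from RefSeq on GRCm38.p6, written 5′ to 3′, with the seed in capitals.
miR-29a-3p: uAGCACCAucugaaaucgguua
miR-29b-3p: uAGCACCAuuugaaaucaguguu
miR-29c-3p: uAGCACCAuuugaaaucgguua
Among 1679 mature mouse miRNAs in the sequence table, these 3 were the ones with AGCACCA at bases 2 to 8. Counted from 1 at the 5′ end, miR-29c-3p differs from miR-29a-3p by C10U and is identical at the other 21 of 22 positions. miR-29b-3p differs from miR-29a-3p by C10U, G18A, U21G and A22U over 22 positions and is 1 base longer. How reads were assigned between names 1 base apart is not stated in the labels or files.

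The family has 4 genes in 2 pairs. The hairpins are shown because miR-29b-3p is made from both pairs, whereas the passenger (5p) arms tell the genes apart. Both mature arms are in capitals.
Mir29a: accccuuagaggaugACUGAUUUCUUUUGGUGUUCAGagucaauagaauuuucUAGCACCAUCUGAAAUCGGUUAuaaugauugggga
Mir29b-1: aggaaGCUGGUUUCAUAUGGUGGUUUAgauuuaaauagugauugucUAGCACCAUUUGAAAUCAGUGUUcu
Mir29b-2: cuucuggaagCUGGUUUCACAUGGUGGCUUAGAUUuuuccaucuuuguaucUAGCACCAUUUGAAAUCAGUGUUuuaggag
Mir29c: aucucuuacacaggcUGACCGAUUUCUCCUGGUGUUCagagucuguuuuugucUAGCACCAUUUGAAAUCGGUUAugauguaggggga
In mm10, Mir29a (chr6:31062660-31062747) and Mir29b-1 (chr6:31063023-31063093) lie on the minus strand, 276 bases apart. Mir29b-1 overlaps the edge of an exon of the noncoding gene Gm27019 on the same strand, and Mir29a lies outside annotated hosts. Mir29b-2 (chr1:195037040-195037120) and Mir29c (chr1:195037547-195037634) lie on the plus strand, 427 bases apart, both overlapping an exon of the noncoding transcript A330023F24Rik and, on the opposite strand, an exon of Cd46. The 5p arms of the 2 miR-29b genes differ at 2 of 21 overlapping positions, U11C and U19C counted from the 5′ end of miR-29b-1-5p.

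The first question was how much of each guide arm the 2 libraries held. miR-29a-3p made up nearly all of the family and was about 2-fold higher in Th17, and miR-29b-3p was also higher, whereas miR-29c-3p was lower. miR-29a-3p had 323944 reads in Th17 and 110769 in Th0, or 27051 CPM (26958 to 27144) in Th17 and 13253 CPM (13175 to 13331) in Th0. It was 2.04-fold higher in Th17 (2.03 to 2.06). With a scaling total that omits the 10 most abundant miRNAs it was 1.87-fold higher, below 2-fold. Among all listed miRNAs it ranked 11 in Th17 and 15 in Th0.

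miR-29b-3p had 4959 reads in Th17 and 1968 in Th0. Its level was 414 CPM in Th17 (403 to 426) and 235 CPM in Th0 (225 to 246), 1.76-fold higher in Th17 (1.67 to 1.85). miR-29c-3p had 4363 reads in Th17 and 4724 in Th0. Its level was 364 CPM in Th17 (354 to 375) and 565 CPM in Th0 (549 to 582), 1.55-fold lower in Th17 (1.49 to 1.62). The order of these less abundant members therefore differed between the libraries: miR-29b-3p stood above miR-29c-3p in Th17, and miR-29c-3p above miR-29b-3p in Th0, with intervals that did not overlap in either. By rank, miR-29b-3p was at 100 in Th17 and 119 in Th0, and miR-29c-3p at 106 in Th17 and 91 in Th0.

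**Figure D1:**
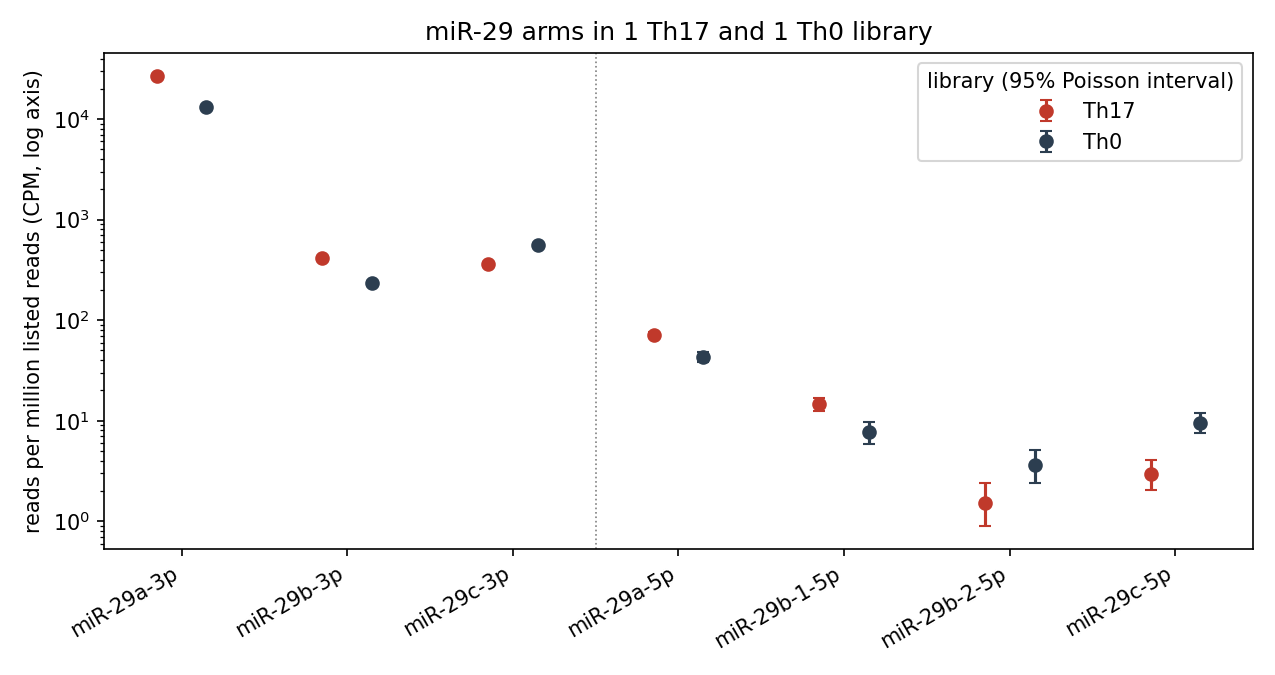
Level of each miR-29 arm in CPM (log axis) in the Th17 and Th0 libraries, with 95% Poisson intervals, guide arms left of the dotted line and passenger arms right of it. miR-29a-3p stands at 27051 CPM in Th17 and 13253 CPM in Th0, far above the other 2 guide arms, and miR-29c-3p, miR-29b-2-5p and miR-29c-5p are lower in Th17.

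Summed, the 3 guide arms had 333266 reads in Th17 and 117461 in Th0. They took 2.78% of the listed reads in Th17 (exact binomial interval 2.77 to 2.79%) and 1.41% in Th0 (1.40 to 1.41%), a ratio of 1.98 (1.97 to 1.99). Most of that sum was miR-29a-3p: miR-29b-3p and miR-29c-3p together stood at 778 CPM in Th17 and 801 CPM in Th0, a ratio of 0.972 with an interval of 0.942 to 1.003. Their differences ran in opposite directions.

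Within the family the shares do not depend on scaling between libraries. miR-29a-3p held 97.2% of the guide-arm reads in Th17 (97.15 to 97.26%) and 94.3% in Th0 (94.17 to 94.43%). miR-29c-3p held 1.31% in Th17 (1.27 to 1.35%) and 4.02% in Th0 (3.91 to 4.14%). miR-29b-3p held 1.49% in Th17 (1.45 to 1.53%) and 1.68% in Th0 (1.60 to 1.75%).

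All 3 pairs of guide arms were compared as read ratios within each library. For each miR-29c-3p read there were 74.2 reads of miR-29a-3p in Th17 and 23.4 in Th0, a 3.17-fold difference (exact conditional interval 3.04 to 3.30). For each miR-29c-3p read there were 1.14 reads of miR-29b-3p in Th17 and 0.417 in Th0, a 2.73-fold difference (2.55 to 2.92). miR-29a-3p and miR-29b-3p moved more alike, with 65.3 reads of miR-29a-3p for each miR-29b-3p read in Th17 and 56.3 in Th0, a 1.16-fold difference (1.10 to 1.22). miR-29a-3p and miR-29c-3p differ at 1 base, and the part of read assignment in these ratios was not tested.

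The second question was how the members stood among all miRNAs. With a minimum mean of 10 CPM, 298 miRNAs were measured. Of these, 6.71% were at least 2-fold higher in Th17 with an interval excluding 1, and miR-29a-3p was the 1 of 3 members among them. At least 1.5-fold higher were 16.8% of the 298 and 2 of the 3 members, miR-29a-3p and miR-29b-3p. At least 1.5-fold lower were 25.5% of the 298 and 1 of the 3 members, miR-29c-3p, and at least 2-fold lower were 13.1% of the 298 and 0 of the members. The interval of miR-29c-3p spans 1.5-fold, and with DESeq2 size factors it was 1.47-fold lower and no longer counted. Its lower level was of a size found for many miRNAs, and 3 members are too few for a share to be read closely.

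The median log2 ratio of the 298 was -0.080, on the scale of log2(CPM + 0.5), Th17 over Th0. On that scale miR-29a-3p was at 1.03, miR-29b-3p at 0.81 and miR-29c-3p at -0.63. Higher ratios than that of miR-29a-3p were found for 18 of the 298, and higher than that of miR-29b-3p for 32. Lower ratios than that of miR-29c-3p were found for 69. Among the 11 other miRNAs within 2-fold of the mean level of miR-29a-3p, 1 had a higher ratio. Among 42 near miR-29b-3p, 5 had a higher ratio, and among 42 near miR-29c-3p, 9 had a lower one.

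**Figure D2:**
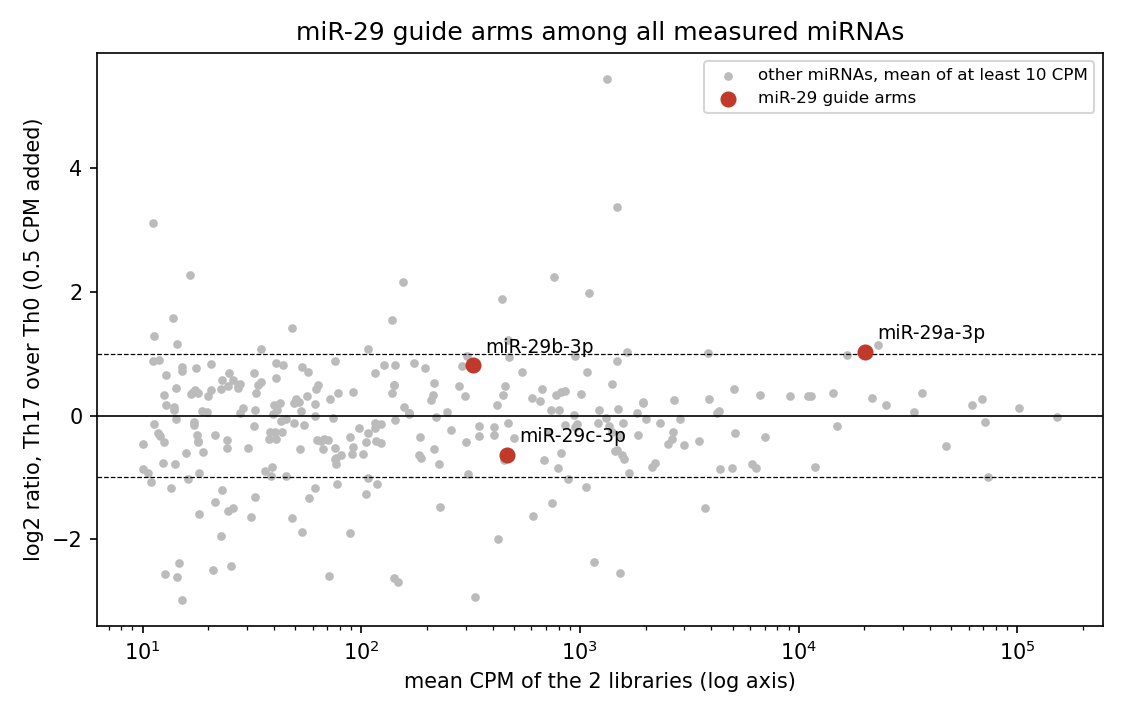
Log2 ratio of Th17 over Th0 (0.5 CPM added) against mean CPM (log axis) for the 298 measured miRNAs, with the miR-29 guide arms in red and dashed lines at 2-fold. miR-29a-3p lies on the upper dashed line at 1.03 among the most abundant miRNAs, miR-29b-3p at 0.81 and miR-29c-3p below 0 at -0.63.

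The third question was whether the 2 gene pairs differed. Of the guide arms, miR-29a-3p comes from the chromosome 6 pair and miR-29c-3p from the chromosome 1 pair. Because miR-29b-3p comes from both, the passenger arms, which tell the genes apart, were compared. Passenger arms of the chromosome 6 pair were higher in Th17, and those of the chromosome 1 pair lower. miR-29a-5p had 849 reads in Th17 and 360 in Th0, at 70.9 CPM in Th17 and 43.1 CPM in Th0, 1.65-fold higher (1.45 to 1.87). miR-29b-1-5p had 175 reads in Th17 and 64 in Th0, at 14.6 CPM in Th17 and 7.66 CPM in Th0, 1.91-fold higher (1.43 to 2.58).

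From the chromosome 1 pair, miR-29b-2-5p had 18 reads in Th17 and 30 in Th0, at 1.503 CPM in Th17 and 3.59 CPM in Th0, 2.39-fold lower (1.29 to 4.55). miR-29c-5p had 35 reads in Th17 and 80 in Th0, at 2.92 CPM in Th17 and 9.57 CPM in Th0, 3.27-fold lower (2.18 to 5.02). These counts are small and their intervals wide. All 4 passenger-arm intervals excluded 1. The share of all miRNAs whose interval excludes 1 was not counted, so this count has no background to be read against. miR-29b-2-5p and miR-29c-5p had means of 2.55 and 6.25 CPM, below the 10 CPM minimum. The shares given above therefore do not cover them. Of 157 miRNAs within 2-fold of the mean level of miR-29b-2-5p, 12 had a lower ratio, and of 115 near miR-29c-5p, 6 did. Of 75 near miR-29a-5p, 7 had a higher ratio, and of 99 near miR-29b-1-5p, 10 did.

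Summed by locus, the chromosome 6 passenger arms had 1024 reads in Th17 and 424 in Th0, 1.69-fold higher (1.504 to 1.892). The chromosome 1 passenger arms had 53 reads in Th17 and 110 in Th0, 2.97-fold lower (2.12 to 4.21). The read ratio of the chromosome 6 to the chromosome 1 arms was 19.3 in Th17 and 3.85 in Th0, a 5.01-fold difference (3.50 to 7.23) that needs no scaling between libraries. Within a pair the arms differed less: the ratio of miR-29a-5p to miR-29b-1-5p was 4.85 in Th17 and 5.63 in Th0, and the interval of their relative difference (0.621 to 1.19) included 1. For miR-29b-2-5p over miR-29c-5p the ratio was 0.514 in Th17 and 0.375 in Th0, with an interval of 0.631 to 2.93. Such intervals do not show that the arms of a pair move alike.

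For miR-29b itself, miR-29b-1-5p supplied 90.7% of its 193 passenger reads in Th17 (85.7 to 94.4%) and 68.1% of its 94 passenger reads in Th0 (57.7 to 77.3%). The guide arm cannot be divided between the genes in this way, because both hairpins shown above end in the same miR-29b-3p sequence. Nothing here measures how well each hairpin's passenger arm survives, so these shares are of passenger reads and not of miR-29b-3p.

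**Figure D3:**
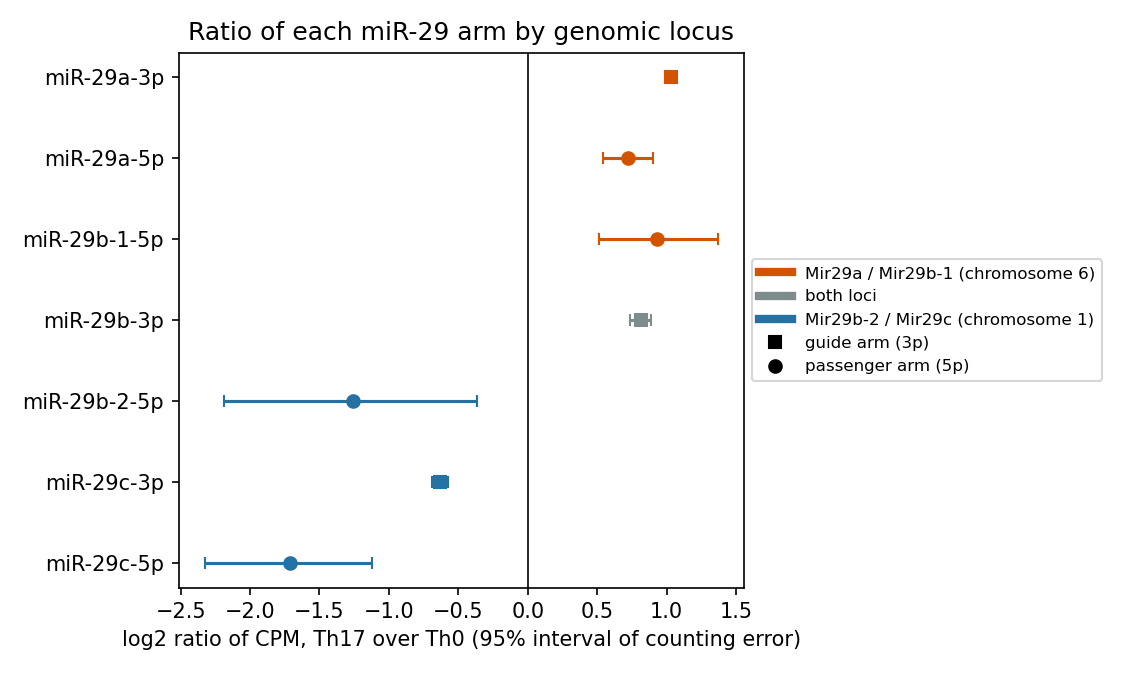
Log2 ratio of CPM, Th17 over Th0, for each guide (square) and passenger (circle) arm with 95% intervals of counting error, coloured by genomic locus. The chromosome 6 arms lie right of 0, the chromosome 1 arms left of 0, and miR-29b-3p, made from both loci, lies right of 0 at 1.76-fold.

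The share of passenger reads was small for each hairpin. For miR-29a, 5p reads were 0.261% of 5p and 3p reads in Th17 (0.244 to 0.280%) and 0.324% in Th0 (0.291 to 0.359%). For miR-29c they were 0.796% in Th17 (0.555 to 1.11%) and 1.67% in Th0 (1.32 to 2.07%). Both shares were lower in Th17 with intervals that did not overlap. For miR-29b, with both genes joined, they were 3.75% in Th17 (3.24 to 4.30%) and 4.56% in Th0 (3.70 to 5.55%), with intervals that overlapped. miR-29c-5p thus differed by more between the libraries than miR-29c-3p did, 3.27-fold against 1.55-fold lower. Arm shares of other hairpins were not computed, so it is not known how common such differences are.

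**Figure D4:**
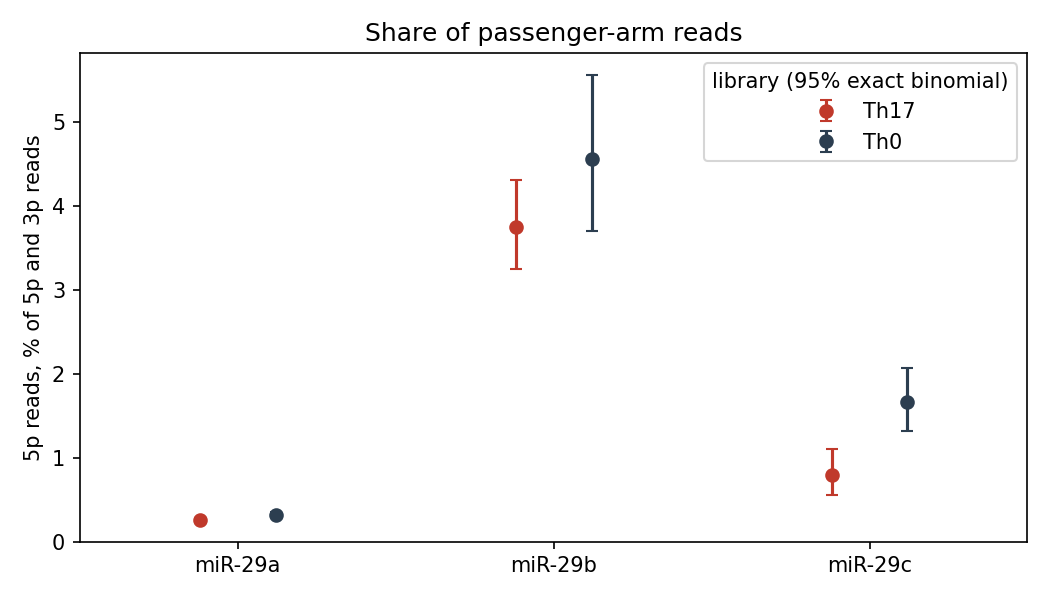
Passenger (5p) reads as a percentage of all reads of each hairpin's arms in the Th17 and Th0 libraries, with 95% exact binomial intervals. The miR-29c share is 0.796% in Th17 and 1.67% in Th0, and the intervals for miR-29b overlap.

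The fourth question was how the family compared with other seed families. Of 1125 listed miRNAs, 935 had a sequence in the RefSeq table, holding 95.1% of the reads in Th17 and 95.7% in Th0, and they formed 810 families by bases 2 to 8. By summed CPM the miR-29 family ranked 12 in Th17 and 14 in Th0 among these. Names without a sequence are missing from their families, so ranks and spreads hold for matched names only and could differ with all names. The family led by miR-30e-5p, for example, lacks miR-30d-5p, at 16208 CPM in Th17 and 12634 CPM in Th0. In 9 families at least 3 matched members had a mean of 10 CPM or more. The distance between the highest and lowest log2 ratio was 1.66 in the miR-29 family, which ranked 5 of the 9 and was their median. Members at least 1.5-fold higher together with members at least 1.5-fold lower, with intervals excluding 1, were found in 2 of the 9 families, miR-29 and the family led by miR-92a-3p. With DESeq2 size factors miR-29 does not meet this, since miR-29c-3p is then 1.47-fold lower. Of the 33 families with at least 2 such members, 4 held both directions. They include those led by miR-193a-3p and miR-146a-5p, with wider spreads of 4.78 and 3.01. At the other end, the 9 matched members of the seed family led by let-7f-5p lay within 0.78 of each other.

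**Figure D5:**
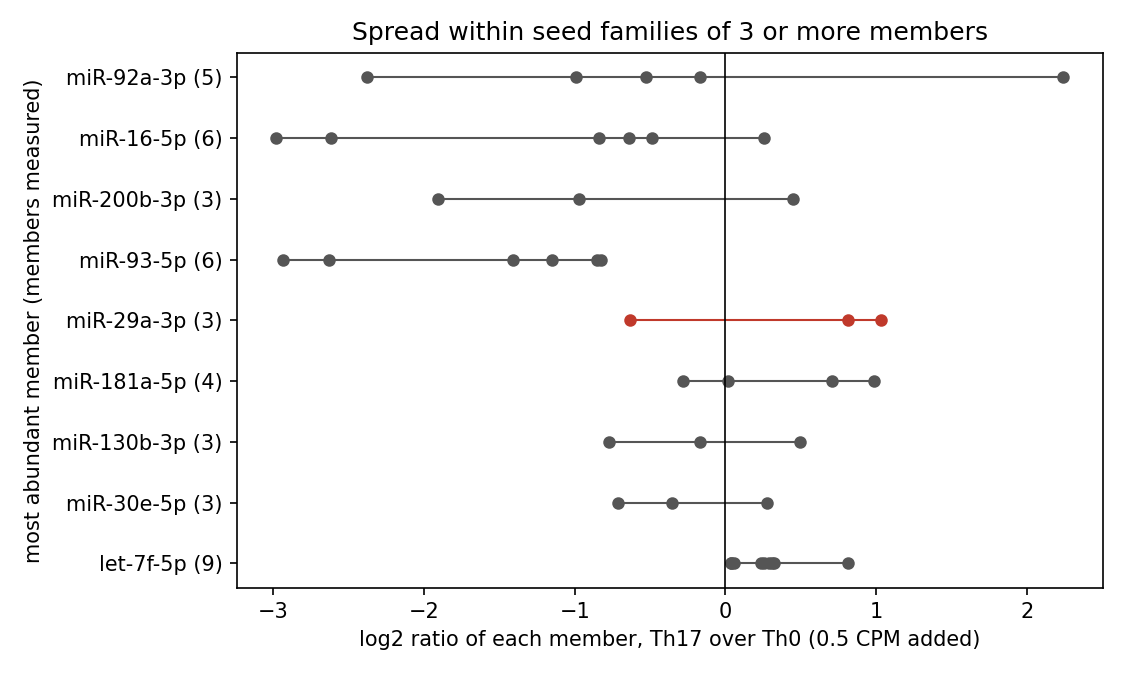
Log2 ratio of Th17 over Th0 (0.5 CPM added) for each measured member of the 9 seed families with at least 3 matched members at a mean of 10 CPM or more, each row named by its most abundant member and ordered by spread. The miR-29 family, in red, has 2 members above 0 and miR-29c-3p below it at -0.63.

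By likeness of level in both libraries, measured as the distance in log2(CPM + 0.5) over the 2 libraries, the nearest miRNAs to miR-29a-3p were miR-155-5p (distance 0.26), miR-181a-5p (0.38) and let-7i-5p (0.59). miR-155-5p stood at 31749 CPM in Th17 and 14346 CPM in Th0, and miR-181a-5p at 22098 and 11156 CPM. Nearest to miR-29b-3p were miR-361-3p (0.19), miR-27b-5p (0.24) and miR-328-3p (0.34). Nearest to miR-29c-3p was miR-30a-5p (0.11), at 339 CPM in Th17 and 556 CPM in Th0, followed by miR-130b-5p (0.26) and miR-320-3p (0.33).

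Other miRNAs with published links to Th1 cells or IFN-γ were set beside the family. Of 16, 3 were at least 1.5-fold higher in Th17 and 6 at least 1.5-fold lower, against 16.8% and 25.5% of all measured miRNAs, and their median log2 ratio was -0.10. The largest differences were those of miR-19b-3p and miR-17-5p, members of the Mir17 cluster that promotes Th1 responses, at 5.88-fold and 2.22-fold lower, miR-148a-3p, which sustains Th1 cells by restraining the death protein Bim, at 2.84-fold lower, and miR-155-5p, which promotes inflammatory T cell responses, at 2.21-fold higher. Of 9 other miRNAs reported to target DNA methyltransferase or Tet messenger RNAs, 7 had a mean of at least 10 CPM. None of the 7 was at least 1.5-fold higher and 1, miR-148a-3p, was at least 1.5-fold lower, against the same 16.8% and 25.5%. So few members do not let a share be read closely. Their median log2 ratio was 0.084, against -0.080 for all measured miRNAs. Below a mean of 10 CPM, miR-143-3p had 73 reads in Th17 and 6 in Th0, and miR-152-3p had 32 in Th17 and 138 in Th0. miR-26a-5p, at 0.37, was the measured member next in size to miR-148a-3p. miR-29a-3p was thus higher by more than any of those 7, but not by more than the sparsely read miR-143-3p, at 8.49-fold higher.

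Messenger RNA was not measured in these libraries, so the following describes sequence only. The letters TGGTGCT, which pair with seed bases 2 to 8, were searched on the transcript strand of the longest annotated 3′ UTR of each gene, and 13.1% of 21020 mouse genes held at least 1 match. Of 13 genes fixed as reported or candidate miR-29 targets, 12 held a match, and Hbp1 held none in this window. These genes were chosen as targets and not at random, so their share is no test against that of all genes. Lengths differ, and of UTRs within 20% of the same length 7.15% (as for Ifng) to 51.5% (as for Tet1) held a match. Matches in the 3 genes of the Th1 programme are shown because they are the T cell targets for which the family is known, with matches of Dnmt3b, the survival protein Mcl1 and the collagens Col1a1 and Col3a1 for comparison. Capitals mark the match, with a further A where the base facing miRNA base 1 is an A.
Tbx21: ctacagtcacgaaccTGGTGCTg
Eomes: aaaataatgtaaattTGGTGCTt
Ifng: aagagacttgacaccTGGTGCTt
Dnmt3b: tagagtagcccggcaTGGTGCTc
Mcl1: ctagagtcttaaccaTGGTGCTA
Col1a1: gtgggaaggaatttcTGGTGCTA
Col3a1: ttcaaaatgtctcaaTGGTGCTA
In mm10 the 7 matched bases lie at chr11:97098547-97098553 (minus strand) for Tbx21, which encodes T-bet, at chr9:118485810-118485816 (plus) for Eomes and at chr10:118445780-118445786 (plus) for Ifng. Each of these 3 genes held 1 match in its UTR, without the further A. Those of Dnmt3b (chr2:153686627-153686633), Mcl1 (chr3:95661859-95661865), Col1a1 (chr11:94952538-94952544) and Col3a1 (chr1:45348982-45348988) are on the plus strand. The longer UTRs held more, with 5 matches each for Dnmt3a and Tet2, 7 for Tet1 and 8 for Tet3, while Pik3r1 held 1. Since the match lies in the seed that all 3 members share, these letters do not separate miR-29a-3p from miR-29b-3p or miR-29c-3p.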

How the data were processed

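Small RNA was sequenced from Th17 and Th0 cells, and the authors deposited for each library whole-number read counts per mature miRNA, not normalized, and TPM values. The deposited TPM values are the counts over 1 total per library, 13070648 for Th17 and 9072995 for Th0. The build used was mm10 per the submitters' processing notes. Not given in the sources used here are the aligner, the miRNA annotation, the treatment of reads matching several miRNAs and the way the triplicates named in the labels were combined.

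Counts were divided by the column sum of each table, and a miRNA not listed was taken as 0. Ratios are Th17 over Th0, with 95% Clopper-Pearson intervals conditional on both counts, in scipy 1.17.1. Log2 ratios had 0.5 CPM added. Read ratios within a library carry exact conditional intervals, levels exact Poisson and shares exact binomial ones. No molecular identifiers mark PCR copies, which are not independent molecules, so intervals cover counting error only.

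Alternatives were scaling by edgeR 4.0.16 TMM, by DESeq2 1.42.0 size factors, without the 10 most abundant miRNAs and by the TPM totals, a pseudocount of 0 or 5 CPM, and no minimum or a minimum of 100 CPM. Members and lists were chosen with earlier results of these data known. The named miRNAs are the members, their passenger arms, up to 4 per list by size of log2 ratio, and the 3 nearest in level to each member. The comparison of passenger-arm ratios and the seed families were added after values were seen. Hosts and UTRs are from GENCODE M21 (GRCm38, the same assembly as mm10).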

Additional observations from a re-analysis of the deposited data

How the results depend on the processing

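Direction held under all 4 other scalings for each guide and passenger arm. The family ratio was 2.09 with DESeq2 size factors and 1.81 without the 10 most abundant miRNAs in the total, a scaling that moves every log2 ratio by -0.13. Under the same 2 scalings miR-29a-3p was at 2.15 and 1.87, miR-29b-3p at 1.86 and 1.61, and miR-29c-3p at a ratio of 0.681, short of 1.5-fold lower, and 0.589. TMM and the TPM totals moved these within counting error. Without miR-29a-3p the sum turned to 0.972, since that arm holds most reads. With 5 CPM added, the log2 ratio of miR-29c-5p was -0.88, against -1.56 with 0.5 CPM, and that of miR-29b-2-5p -0.40, against -1.03.

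The percentile of the miR-29a-3p log2 ratio among measured miRNAs, 93.6, became 94.97 with 5 CPM added, 94.6 with no minimum and 92.4 at 100 CPM, and that of miR-29c-3p, 23.2, became 16.1 and 20.9 under these minimums. With the 10 CPM minimum, 20 of 298 miRNAs were at least 2-fold higher and 39 lower, and 50 at least 1.5-fold higher and 76 lower. With no minimum the numbers were 69, 100, 110 and 153 of 1125 listed miRNAs, in that order. With 100 CPM they were 13, 15, 27 and 36. The minimums leave different numbers of miRNAs, so these counts alone do not show a change in share. With no minimum, 1 of the 9 members of the DNA methylation list was at least 1.5-fold higher and 2 at least 1.5-fold lower. That stands beside 110 and 153 of all 1125 listed miRNAs. No paired analysis was possible because each group has 1 column of reads, and no column could be left out for the same reason. Depth limits miR-29b-2-5p and miR-29c-5p most, at 18 to 80 reads.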
